A study of Homo sapiens with 6 samples.

Results

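The nuclear genes for subunits of the mitochondrial respiratory chain and of ATP synthase were examined in HO-1-N-1 cells, an established line derived from a human oral squamous cell carcinoma. They were chosen by gene symbol alone: names of the NDUFA, NDUFB, NDUFC, NDUFS and NDUFV series followed by digits, SDHA to SDHD, names starting with UQCR, CYC1, the COX4I, COX5, COX6, COX7 and COX8 series, and names starting with ATP5. Assembly factors named NDUFAF, read-through genes with a hyphen and pseudogene names were left out. Of 90 names that matched, 2 were removed for a hyphen (ATP5MF-PTCD1 and NDUFC2-KCTD14) and 0 for a pseudogene ending, which left 88 genes of the 21462 in the table. By complex they numbered 36 for complex I, 4 for complex II, 10 for complex III, 19 for complex IV and 19 for complex V. NDUFA4 and NDUFA4L2 were placed in complex IV, where NDUFA4 is known to be a subunit despite its name, and COX7A2L, a factor that joins complexes III and IV, was placed there by its name.

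Poly(A) RNA was sequenced from cells transfected with an siRNA against Sam68 (libraries 1, 2 and 3) and from cells transfected with a control siRNA (libraries 1, 3 and 5). All cells had the same line, growth medium and lipid reagent, so the groups differ, as far as the labels say, in the siRNA only. The sources used here give neither the siRNA sequences nor the time of harvest. It is not stated whether each library had its own culture, so a p-value measures only the spread between libraries, which may be technical. The files hold read counts per gene and TPM, a level per transcript length scaled to a fixed total in each library.

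The respiratory chain carries electrons from NADH (complex I) and succinate (complex II) through ubiquinone to complex III, then by cytochrome c to complex IV, which reduces oxygen. Complexes I, III and IV pump protons across the inner mitochondrial membrane, and ATP synthase, complex V, uses the proton gradient to make ATP. All subunits of complex II, and most of those of the others, are encoded in the nucleus, and the mitochondrial genome encodes a few core subunits of complexes I, III, IV and V. Sam68, the product of KHDRBS1, binds RNA through a STAR domain and is known for its roles in splicing and RNA metabolism.

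The transfection left KHDRBS1 mRNA at 28.7 ± 2.29 CPM in Sam68 siRNA libraries and 205 ± 21.3 CPM in control libraries (SD, n = 3 each; CPM are counts scaled to library size, with TMM factors). Libraries held 16099488 to 17336651 counts over 14412 to 14590 genes with a count. Markers of squamous epithelial cells were high in every library: the TPM of KRT5, KRT14, KRT17, TP63, CDH1 and EPCAM summed to 11050 to 11440 in Sam68 siRNA libraries and 10500 to 10750 in control libraries. The summed TPM of 4 fibroblast markers was 2.49 to 4.01 against 2.56 to 7.26, that of 3 endothelial markers 1.18 to 1.49 against 1.24 to 1.80, and that of 3 leukocyte markers 56.4 to 60.3 against 41.8 to 56.5, nearly all of it CD68. The 13 protein-coding genes of the mitochondrial genome took 0.300%, 0.612% and 0.671% of the counts in Sam68 siRNA libraries 1, 2 and 3, and 0.158%, 0.216% and 2.27% in control libraries 1, 3 and 5. Control library 5 thus stood apart from the others by its mitochondrial transcripts, and the counts of calls are also given without it, an alternative chosen after the data were seen.

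The regulatory sequences of the subunit genes called changed (a false discovery rate adjusted p below 0.05 by edgeR) are shown first, since the values below turn on these genes. RefSeq (GRCh38.p14) gave a promoter for 70 of the 88 genes, 3 of which it lists under another symbol, and the 250 bases before the transcription start were searched on both strands for 4 motifs known from promoters of respiratory genes. SDHC, the subunit gene that fell, had no promoter among these 70, so no fall enters the motif counts. Capitals mark the motifs. The windows of the 3 genes that rose lie at chr7:123557819-123558068 (NDUFA5, minus strand), chr22:42090773-42091022 (NDUFA6, minus strand) and chr11:63974370-63974619 (COX8A, plus strand).
NDUFA5: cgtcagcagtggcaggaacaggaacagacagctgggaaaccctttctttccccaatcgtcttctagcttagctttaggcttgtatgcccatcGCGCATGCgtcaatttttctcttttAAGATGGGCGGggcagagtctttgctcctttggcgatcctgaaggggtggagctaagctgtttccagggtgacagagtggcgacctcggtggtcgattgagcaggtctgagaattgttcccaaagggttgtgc
NDUFA6: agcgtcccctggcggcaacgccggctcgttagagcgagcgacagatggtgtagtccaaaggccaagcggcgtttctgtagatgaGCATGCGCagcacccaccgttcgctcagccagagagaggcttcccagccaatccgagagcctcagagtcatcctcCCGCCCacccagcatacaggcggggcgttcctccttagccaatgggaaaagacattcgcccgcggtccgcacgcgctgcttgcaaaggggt
COX8A: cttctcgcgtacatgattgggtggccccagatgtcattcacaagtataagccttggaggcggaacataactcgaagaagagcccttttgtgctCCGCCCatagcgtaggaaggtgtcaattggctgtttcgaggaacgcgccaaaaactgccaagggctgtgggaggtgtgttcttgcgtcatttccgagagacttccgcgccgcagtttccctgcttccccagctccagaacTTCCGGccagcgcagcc

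The site of NRF1, a transcription factor of respiratory genes, was searched as GCATGCGC (GCGCATGC on the other strand) and begins 158 bases before the start of NDUFA5 and 166 bases before that of NDUFA6. In NDUFA5 a match to AAGATGG, the core of the YY1 site, begins at 133 bases and runs into one to GGGCGG, the GC box of the SP family, at 128 bases. NDUFA6 holds the GC box as CCGCCC at 91 bases and COX8A at 157 bases. COX8A also holds the core CCGGAA of the ETS family, to which GABPA belongs, as TTCCGG at 17 bases. It had no match to GCATGCGC in this window. These distances are to the RefSeq start. The deposited NDUFA5 and NDUFA6 genes begin further upstream, at chr7:123557904 and chr22:42090884, within their windows. The GC box of NDUFA6 thus lies inside the deposited gene. Among the 70 subunit promoters the NRF1 site was in 13 (18.6%), against 924 of 35116 promoters of the same length (2.63%). The ETS core was in 26 (37.1%, against 14.5%), the GC box in 41 (58.6%, against 42.6%) and the YY1 core in 5 (7.14%, against 3.70%). Each subunit gene gave 1 window, the one with its start nearest the gene's 5′ end. The 35116 are all windows listed, with no such choice, so the shares come from unlike sets. A match is a description of letters and not of binding.

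The 13 tested genes with the NRF1 letters had log2 fold changes of −0.19 to 0.38 with a median of 0.04 and 2 rises. The 53 without them had −0.23 to 0.35, a median of −0.02 and 1 rise. Of all tested genes 9.33% rose, and with 13 genes the 2 rises are a description only. The NRF1 letters were thus in promoters of genes at both ends of the range: NDUFA5 and NDUFA6 rose, while ATP5MC2, at −0.19, and NDUFS7, at −0.12, hold the same letters and did not pass the test. Medians with and without the ETS core were −0.02 and −0.01, with and without the GC box −0.01 and 0.00, and with and without the YY1 core −0.04 and −0.01.

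A pair of heptamers that had been singled out in an earlier look at these data was sought in the 3′ UTR of each subunit gene (GENCODE 29, hg38). The 3′ UTRs of the 88 genes had a median length of 209.5 bases, between 18 and 12907. They are taken from the annotation, and counts per gene do not show whether mRNAs of these cells hold their full length. GCAGTAC lay in 4 of the tested genes, of which NDUFA5 rose, and NDUFA10, NDUFB2 and NDUFV3 were at −0.01, 0.05 and 0.14 and not called. ACTGATT lay in 6, of which SDHC fell, and NDUFS1, COX7C, NDUFB2, ATP5F1A and NDUFV3 were between −0.04 and 0.14 and not called. Tested genes without GCAGTAC had 2 rises, 1 fall and a median log2 fold change of −0.01, and those without ACTGATT had 3 rises, 0 falls and a median of −0.01. Since the heptamers were picked from these data, and 19.1% of all tested genes were called, these counts are given as a description only. The site of NDUFA5, at chr7:123541133-123541159 on the minus strand, lies 970 bases after the stop codon, and the 3 sites of SDHC, which has the longest of these 3′ UTRs, lie 1054, 4701 and 9528 bases after it at chr1:161363477-161363503, chr1:161367124-161367150 and chr1:161371951-161371977 on the plus strand. For comparison, a site of NDUFB2, which was not called, lies at chr7:140721943-140721969 on the plus strand. Capitals mark the heptamer within 27 bases.
NDUFA5: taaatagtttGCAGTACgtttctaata
SDHC, first site: cccattaaggACTGATTataagcttca
SDHC, second site: ttttttaaatACTGATTaaatgttgaa
SDHC, last site: cttttcctctACTGATTtgaaatgcca
NDUFB2: taggttggcaGCAGTACtctggaaact

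Most subunit mRNAs differed little between the groups. Of 80 genes with enough counts to test, 3 rose (NDUFA5, NDUFA6 and COX8A), 1 fell (SDHC) and 76 were not called, at a Benjamini-Hochberg adjusted p below 0.05 by edgeR's quasi-likelihood test over all 12351 tested genes. That is 5.0% of the subunit genes, where 19.1% of all tested genes were called (9.33% rose and 9.76% fell) and 22.9% of the 7778 tested genes that averaged 20 CPM or more. The median log2 fold change of the 80 was −0.01, with 34 above 0 and 46 below, and the median of all tested genes was 0.00. The 80 values had an SD of 0.11 and ran from −0.23 (NDUFA2) to 0.38 (NDUFA5), against an SD of 0.32 for all tested genes. The median size of change, whatever its sign, was 0.06 for the subunit genes, 0.15 for all tested genes and 0.13 for those of 20 CPM or more.

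How large a change these data could have missed is given by the intervals. The 95% interval of the log2 fold change lay within 1.5-fold in either direction for 78 of the 80 subunit genes (97.5%), for 75.6% of all tested genes and for 91.2% of those of 20 CPM or more. The median SE was 0.07 for the subunit genes and 0.08 for genes of 20 CPM or more. An unadjusted p below 0.05 was reached by 11 of the 80, against 33.1% of all tested genes. The values of the groups did not overlap in 22 of the 80 subunit genes, 11 higher and 11 lower with the Sam68 siRNA (27.5%), against 38.0% of all tested genes. A fitted log2 fold change beyond 0.32 in either direction was seen in 2, NDUFA5 and COX6B2, against 20.6% of all tested genes. Without control library 5, 3 subunit genes rose and 3 fell of 81 tested (7.41%, against 21.4% of all tested genes), the added calls being ATP5MC2 and COX7A2L.

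**Figure D1:**
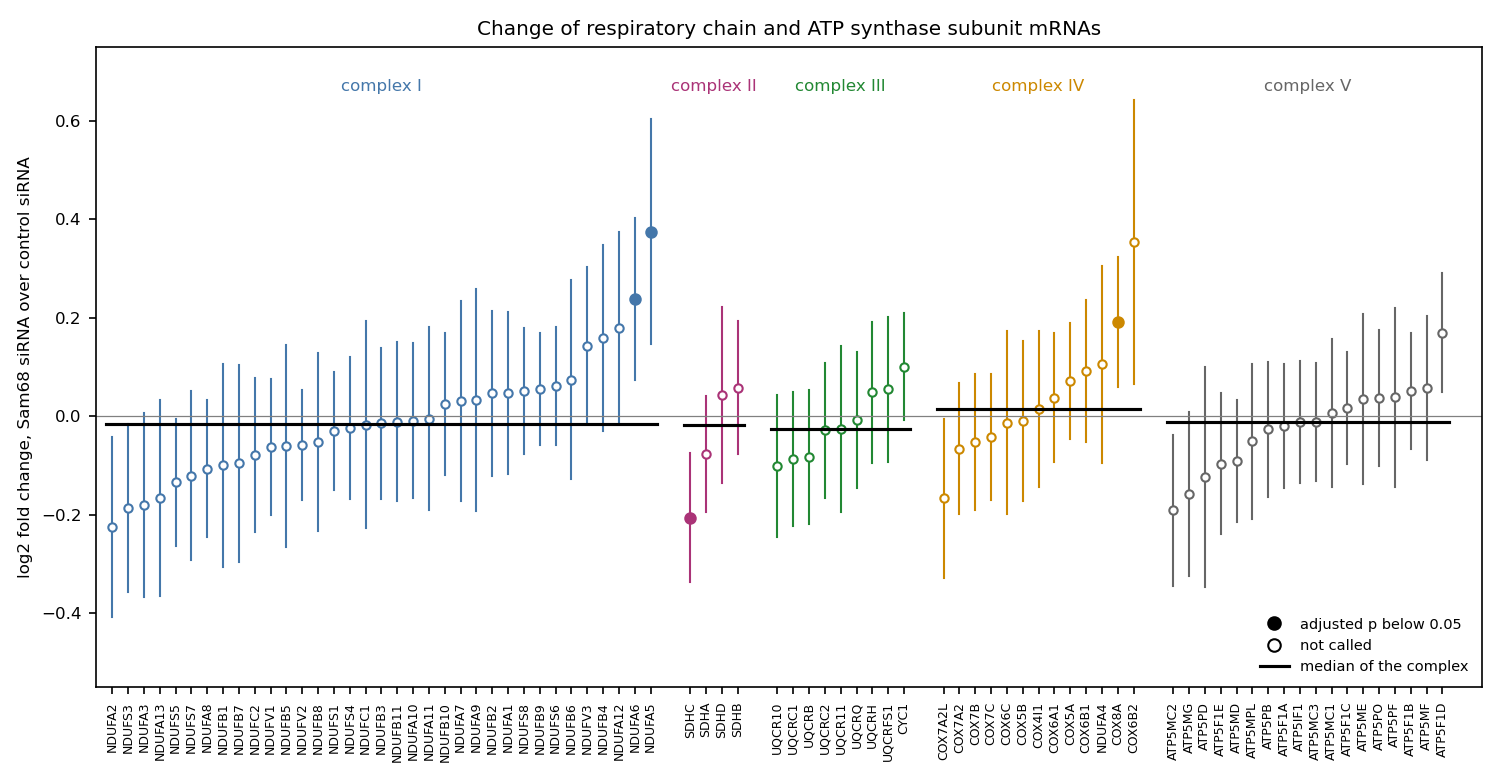
Log2 fold change of Sam68 siRNA over control siRNA (vertical axis) for tested subunit genes, ordered by change within complexes I to V; points are fitted values, lines their 95% intervals, filled points have an adjusted p below 0.05 and black bars are the median of each complex. The 5 medians lie between −0.03 and 0.01, and the 4 filled points are NDUFA5, NDUFA6, SDHC and COX8A.

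The 5 complexes had medians close to one another. They were −0.02 for complex I, −0.02 for complex II, −0.03 for complex III, 0.01 for complex IV and −0.01 for complex V. The SD of the members within a complex was 0.12, 0.12, 0.07, 0.13 and 0.09 in that order, wider than the spread of the medians. Calls were 2 rises of 36 in complex I, 1 fall of 4 in complex II and 1 rise of 13 in complex IV. Of all tested genes 19.1% were called, and the share of complex II rests on 1 gene. Calls were 0 of 9 in complex III and 0 of 18 in complex V. There, 0 and 2 genes had an unadjusted p below 0.05, and DESeq2 and limma-voom also called 0. Counting NDUFA4 with complex I, a choice made after the data were seen, gave medians of −0.01 for complex I and 0.00 for complex IV. Leaving out control library 1 put the medians of complexes III and IV at 0.04 and 0.07, and leaving out control library 3 put that of complex IV at −0.02, so the order of the complexes is not fixed by these libraries. Without control library 5 the calls were the same in complexes I, II and III, with 1 rise and 1 fall of 14 tested in complex IV and 1 fall of 18 in complex V.

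Complex I takes electrons from NADH through 7 nuclear core subunits that hold the flavin and the iron-sulfur clusters, surrounded by accessory subunits. None of the 7 core genes was called (1 at an unadjusted p below 0.05, and 0 by DESeq2 or limma-voom). Beside the 19.1% of all tested genes called, 7 genes are too few to tell a difference. Without control library 1 the median of complex I as a whole was 0.022. Over all libraries 6 of the 7 core genes were below 0, with a median of −0.06. NDUFS3, a core subunit of the arm that reaches into the matrix, had the lowest log2 fold change of these. It held 49.0, 54.5 and 51.1 CPM in Sam68 siRNA libraries, against 63.4, 54.1 and 58.5 CPM in control libraries. Its groups overlapped, its log2 fold change was −0.19 (adjusted p = 0.118 by edgeR), and its exons share bases with CELF1 and PTPMT1, which hold 161% and 117% of its counts. NDUFV1, which binds NADH and the flavin, held 186, 191 and 190.5 CPM, against 215, 185 and 193 CPM, a log2 fold change of −0.06. NDUFS1, the largest core subunit, was at −0.03 and NDUFS8 at 0.05.

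Among the 29 accessory genes 2 rose, 0 fell and 27 were not called (6.9% called, against 19.1% of all tested genes), with a median of −0.01. NDUFAB1, also known as an accessory subunit, has no digit after NDUFA and was outside the rule (log2 fold change −0.12, not called). NDUFA5, an accessory subunit of the matrix arm (ENSG00000128609, hg38 chr7:123536997-123557904, minus strand), held 55.2, 67.4 and 69.8 CPM in Sam68 siRNA libraries 1, 2 and 3, against 54.5, 50.2 and 43.6 CPM in control libraries 1, 3 and 5. The groups did not overlap, but Sam68 siRNA library 1 and control library 1 were close to each other. The mean was 64.1 ± 7.84 CPM in Sam68 siRNA libraries and 49.4 ± 5.51 CPM in control libraries (SD, n = 3 each). The log2 fold change was 0.38 (SE 0.10, 95% interval 0.15 to 0.60, adjusted p = 0.0287 by edgeR's quasi-likelihood test), and an exact two-sided permutation test gave p = 0.1, the smallest that 3 against 3 allows. The call was lost without Sam68 siRNA library 2 (adjusted p = 0.115), Sam68 siRNA library 3 (0.129) or control library 3 (0.0755). NDUFA5 has 12 annotated pseudogenes that could share reads with it.

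NDUFA6, an accessory subunit of the LYR protein family (ENSG00000184983, chr22:42085526-42090884, minus strand), held 48.5, 49.1 and 47.2 CPM in Sam68 siRNA libraries, against 37.5, 41.5 and 43.8 CPM in control libraries. All 3 Sam68 siRNA values lay above all control values, with means of 48.3 ± 0.953 and 40.9 ± 3.16 CPM (n = 3 each). Its log2 fold change was 0.24 (SE 0.08, interval 0.07 to 0.40, adjusted p = 0.0458 by edgeR; exact permutation p = 0.1). Left out singly, every library but control library 5 ended the call (adjusted p = 0.120 and 0.0876 without control libraries 1 and 3, and 0.105, 0.152 and 0.119 without Sam68 siRNA libraries 1, 2 and 3).

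The accessory gene furthest below 0 was NDUFA2, which encodes a small subunit of the matrix arm. It held 47.7, 50.3 and 44.4 CPM in Sam68 siRNA libraries, against 61.2, 50.8 and 54.5 CPM in control libraries. The groups were separated by a narrow gap, and the log2 fold change of −0.23 (SE 0.08) had an adjusted p of 0.0812 by edgeR. NDUFA2 shares 70 exon bases on the other strand with IK, a splicing factor gene that holds 290% of its counts and fell (log2 fold change −0.23). Since the counting is not known to use strand, their reads cannot be told apart there.

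The other accessory genes lay between −0.18 and 0.18. NDUFA3, NDUFS5, NDUFA8 and NDUFS4 were lower in all 3 Sam68 siRNA libraries than in any control library, by −0.18, −0.13, −0.11 and −0.02 on the log2 scale. NDUFB4, NDUFV3 and NDUFB9 were higher in all 3, by 0.16, 0.14 and 0.06. Of all accessory genes 34.5% had groups apart, against 38.0% of all tested genes. NDUFB4 showed 73.1, 74.8 and 73.1 CPM in Sam68 siRNA libraries, against 56.5, 71.0 and 70.5 CPM in control libraries, so its difference came mostly from control library 1, and it has 12 annotated pseudogenes. NDUFA12 held 52.4, 53.0 and 52.2 CPM, against 40.5, 52.5 and 46.0 CPM. It was called only without control library 3 (adjusted p = 0.0478) among the fits with 1 library left out. NDUFS6, a zinc-binding subunit, was at 0.06 (interval −0.06 to 0.18), with 289, 291 and 273 CPM in Sam68 siRNA libraries and 280, 265 and 271 CPM in control libraries. NDUFS5, a subunit of the membrane arm, held 148, 157 and 145 CPM against 174, 161 and 158 CPM.

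Complex II, succinate dehydrogenase, is both an enzyme of the tricarboxylic acid cycle and an entry to the chain. SDHC, which with SDHD anchors the enzyme in the membrane and binds haem (ENSG00000143252, chr1:161314257-161375340, plus strand), was the subunit gene that fell. It held 99.6, 105 and 101 CPM in Sam68 siRNA libraries, against 112, 123 and 119 CPM in control libraries. Every Sam68 siRNA library lay below every control library, and the means were 102 ± 2.77 and 118 ± 5.48 CPM (n = 3 each). The log2 fold change was −0.21 (SE 0.06, interval −0.34 to −0.08, adjusted p = 0.0325 by edgeR; exact permutation p = 0.1). Without control library 3 the adjusted p was 0.118, and without Sam68 siRNA libraries 1, 2 and 3 it was 0.108, 0.0671 and 0.103, so the call was lost in each of these fits. SDHC has 4 annotated pseudogenes.

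SDHD, its partner in the membrane, was not called. It held 96.3, 116 and 112 CPM in Sam68 siRNA libraries, against 111, 108 and 95.3 CPM in control libraries, with overlapping groups and a log2 fold change of 0.04 (interval −0.14 to 0.22). The difference between SDHC and SDHD was not itself tested. SDHA, the flavoprotein that oxidises succinate, held 376, 389 and 383 CPM, against 415, 396 and 399 CPM. The SDHA groups did not overlap, and its log2 fold change of −0.08 was not called (adjusted p = 0.356). SDHB, the iron-sulfur subunit, was at 0.06 with 107, 109 and 106 CPM against 109, 97.4 and 102 CPM.

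Complex III passes electrons from ubiquinol to cytochrome c. None of its 9 tested genes was called, and their log2 fold changes ran from −0.10 (UQCR10) to 0.10 (CYC1). CYC1, cytochrome c1, was the only one with groups apart, at 144, 145 and 143 CPM in Sam68 siRNA libraries, against 133, 132 and 138 CPM in control libraries (adjusted p = 0.18). UQCR10, a small subunit, held 76.8, 82.1 and 74.8 CPM, against 82.5, 81.0 and 87.3 CPM. UQCRFS1, the Rieske iron-sulfur protein, and the core proteins UQCRC1 and UQCRC2 were at 0.05, −0.09 and −0.03. UQCRH, the hinge protein, held 226, 238 and 234 CPM against 246, 218 and 211 CPM. UQCRHL, an intronless copy of UQCRH with 6 to 14 counts per library, was not tested, and reads of one could be assigned to the other.

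Complex IV, cytochrome c oxidase, has nuclear subunits around a core made by the mitochondrial genome. COX8A, a small membrane subunit (ENSG00000176340, chr11:63974620-63976543, plus strand), rose. Its levels were 198, 196 and 193 CPM in Sam68 siRNA libraries, against 159, 181 and 175 CPM in control libraries. The Sam68 siRNA libraries lay close together and above all controls, with means of 196 ± 2.51 and 171 ± 11.7 CPM (n = 3 each). Its log2 fold change was 0.19 (SE 0.06, interval 0.06 to 0.32, adjusted p = 0.045 by edgeR; exact permutation p = 0.1). The adjusted p was 0.105 without control library 1 and 0.12, 0.141 and 0.126 without Sam68 siRNA libraries 1, 2 and 3, which ended the call.

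COX6B2 stood out by size. It encodes an isoform of COX6B1 best known from testis, and held 6.57, 7.18 and 7.39 CPM in Sam68 siRNA libraries, against 4.99, 5.69 and 5.86 CPM in control libraries. The groups were apart, but the log2 fold change of 0.35 (SE 0.13, interval 0.07 to 0.64) had an adjusted p of 0.0825 by edgeR. Per length, it stood at 3.28%, 3.81% and 4.17% of the COX6B1 TPM in Sam68 siRNA libraries and 2.73%, 3.28% and 3.35% in control libraries, shares that overlapped (exact permutation p = 0.3). COX6B1 was at 0.09, with 98.4, 92.4 and 86.9 CPM against 89.7, 85.0 and 85.7 CPM.

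The other complex IV genes were not called. COX4I1, the regulatory subunit that binds ATP, held 288, 304 and 290 CPM in Sam68 siRNA libraries and 324, 267 and 281 CPM in control libraries, a log2 fold change of 0.01. COX5A was higher in all 3 Sam68 siRNA libraries, with 111, 110 and 110 CPM against 106, 105 and 105 CPM, and was at 0.07. COX7A2 was lowest among the subunits proper at −0.07, and COX5B, COX6A1, COX6C, COX7B and COX7C lay between −0.05 and 0.04. COX6C has 17 annotated pseudogenes, the most of all the subunit genes. NDUFA4 held 63.6, 61.5 and 56.8 CPM, against 48.5, 58.6 and 62.0 CPM (0.11). COX7A2L held 77.6, 85.6 and 81.7 CPM, against 99.8, 89.98 and 85.1 CPM, overlapping by a narrow margin, with a log2 fold change of −0.17 (adjusted p = 0.14, and 0.038 without control library 5).

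Isoforms of complex IV known from other tissues were at or near 0. COX7B2, COX8C, COX7A1 and COX4I2 had 0 counts in every library, and COX6A2, the isoform of heart and skeletal muscle, had 1 count in control library 5 and 0 elsewhere. NDUFA4L2, a paralog of NDUFA4 induced by hypoxia in other cells, had 3 to 10 counts per library and was not tested. COX4I1, COX6A1, COX7A2, COX7B and COX8A, the forms that most cell types use, were present in every library.

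ATP synthase has a catalytic F1 head, a rotor with a ring of c subunits in the membrane, a peripheral stalk, and further membrane subunits. Of its 18 tested genes 0 were called, and their log2 fold changes ran from −0.19 to 0.17. In the F1 head and central stalk the median was 0.02. ATP5F1B, the catalytic beta subunit, held 652, 685 and 654 CPM in Sam68 siRNA libraries, against 647, 626 and 649 CPM in control libraries, which gave a log2 fold change of 0.05. ATP5F1A, the alpha subunit, was at −0.02 with 393, 422 and 404 CPM against 429, 408 and 399 CPM. ATP5F1D, the delta subunit of the central stalk, held 118, 125 and 121 CPM, against 110, 106 and 108 CPM. Its groups were well apart, yet its adjusted p of 0.0506 by edgeR (a log2 fold change of 0.17 with an SE of 0.06) missed the threshold, which it passed with a stricter filter (0.0492) or without robust estimation (0.0479).

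The c subunit is made by 3 genes, ATP5MC1, ATP5MC2 and ATP5MC3, which encode the same mature protein with different import signals. ATP5MC2 held 81.9, 88.0 and 84.9 CPM in Sam68 siRNA libraries, against 105, 93.2 and 92.2 CPM in control libraries. The groups were apart (a log2 fold change of −0.19 with an SE of 0.07; adjusted p = 0.0775 by edgeR, and 0.0305 without control library 5), and ATP5MC1 and ATP5MC3 were at 0.01 and −0.01. Of the summed TPM of the 3 genes, ATP5MC2 made up 21.4%, 23.6% and 24.2% in Sam68 siRNA libraries, against 27.1%, 25.1% and 24.3% in control libraries. ATP5MC1 gave the main part, 66.0%, 62.6% and 62.2%, against 59.9%, 61.8% and 62.6%, and ATP5MC3 gave 12.6% to 13.8%, against 13.01% to 13.09%. The ATP5MC2 shares of the groups did not overlap but nearly met, at Sam68 siRNA library 3 and control library 5.

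The peripheral stalk genes had a median of 0.01, between −0.12 (ATP5PD) and 0.04 (ATP5PF and ATP5PO). ATP5PD held 160, 180 and 164 CPM in Sam68 siRNA libraries, against 215, 172 and 161 CPM in control libraries, where control library 1 was the highest. The 5 further membrane genes had a median of −0.05. ATP5MG, the g subunit, which holds synthase dimers together, held 153, 152 and 150 CPM, against 193, 159 and 156 CPM, with groups apart and an adjusted p of 0.173. ATP5MD was likewise lower in each Sam68 siRNA library (−0.09), ATP5MPL was at −0.05, and ATP5ME and ATP5MF were at 0.03 and 0.06. ATP5IF1, the inhibitor that stops the synthase from splitting ATP, was at −0.01 with 123, 133 and 124 CPM against 132, 126 and 125 CPM. ATP5MGL, a copy of ATP5MG, had 1 or 2 counts in each Sam68 siRNA library and 0 in control libraries and was not tested.

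**Figure D2:**
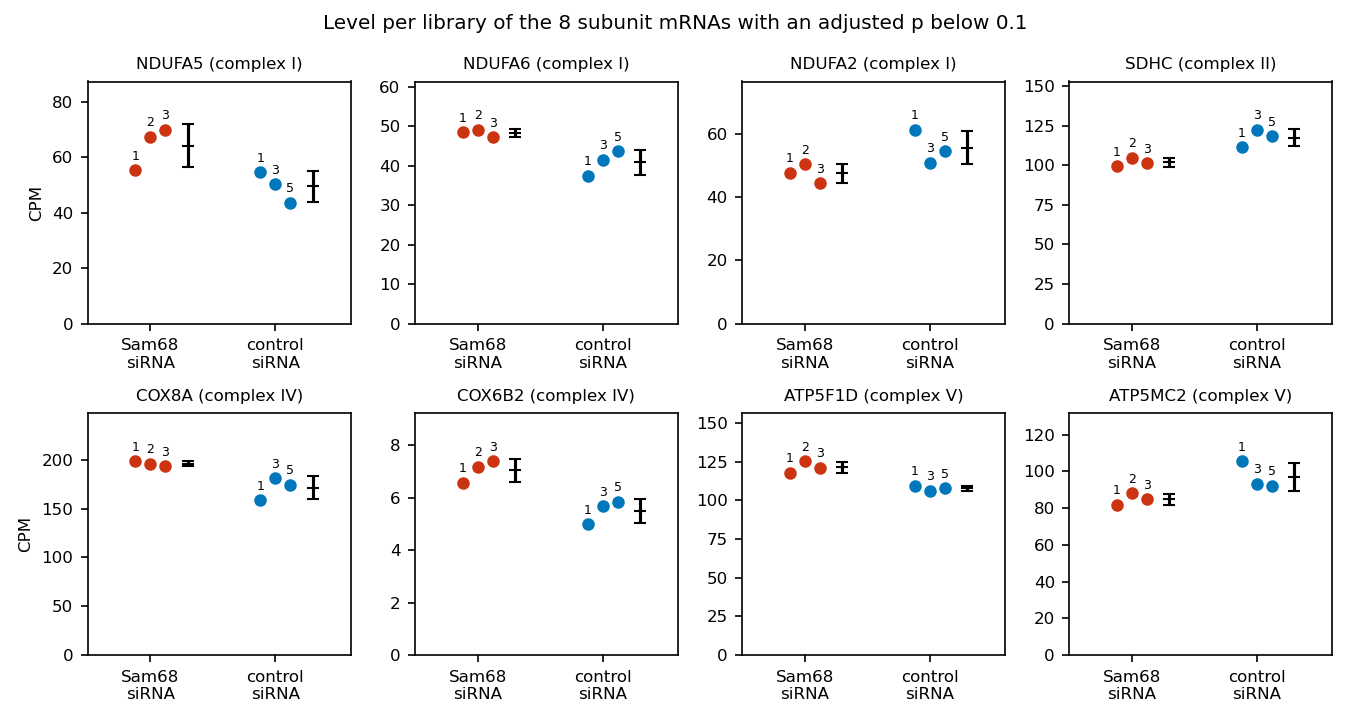
Level in CPM of the 8 subunit genes with an adjusted p below 0.1, with Sam68 siRNA libraries on the left of each panel and control libraries on the right; numbers are the library numbers, and bars are the mean and SD of 3. In every panel the groups do not overlap, and the gap is narrowest for NDUFA2 and NDUFA5.

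Transcript levels spanned a wide range within each complex. By the authors' TPM, averaged over 6 libraries, complex I ran from 9.34 (NDUFA9) to 840 (NDUFS5) with a median of 106. The median was 172 TPM for complex II, 183 for complex III, 239 for complex IV and 293 for complex V. SDHC was lowest in complex II with 23.4 TPM and SDHA highest with 396 TPM, and complex III ran from UQCRB at 56.0 TPM to UQCRH at 957 TPM. COX8A had the highest TPM of all, 1164 ± 26.7 in Sam68 siRNA libraries and 1014 ± 79.2 in control libraries (SD, n = 3 each), followed by ATP5F1B with 1107 ± 12.04 and 1064 ± 31.8. Their order was not the same throughout, since ATP5F1B was above COX8A in control libraries 1 and 5. TPM divides by an annotated length, and the exons of COX8A join to 507 bases where those of SDHC join to 14160, so a gene whose long exons are little used is listed low.

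**Figure D3:**
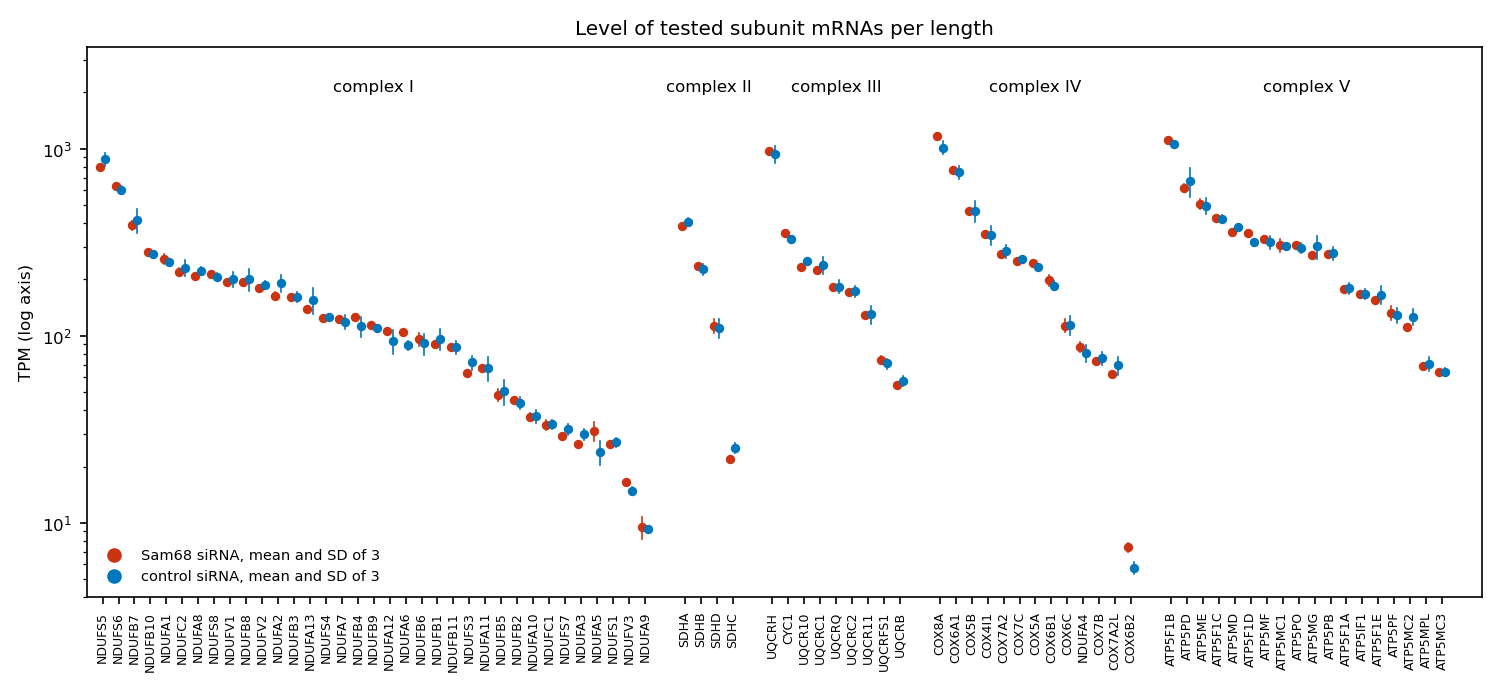
Mean TPM (log axis) of tested subunit genes, ordered by level within complexes I to V, in Sam68 siRNA libraries (left point of each pair) and control libraries (right point); lines are the SD of 3. The points of a pair lie close together beside the range between genes, from 6.59 TPM for COX6B2 to 1089 TPM for COX8A over all 6 libraries.

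As a group, the subunit genes varied between libraries of the same group. They took 0.904%, 0.947% and 0.915% of all counts in Sam68 siRNA libraries 1, 2 and 3, and 0.975%, 0.912% and 0.893% in control libraries 1, 3 and 5 (95% Wilson intervals within 0.0048 percentage points, which cover counting error only). Taken as the mean log2 deviation of the 80 genes from the 6-library mean, Sam68 siRNA libraries lay at −0.03, 0.05 and −0.02 and control libraries at 0.05, −0.03 and −0.02. Sam68 siRNA library 2 and control library 1 were thus the high ones, 1 in each group. Control library 1 held the highest value of 39 of the 80 genes and Sam68 siRNA library 2 that of 22, and the lowest value fell to Sam68 siRNA library 1 in 21, control library 3 in 19 and Sam68 siRNA library 3 in 17. In bulk RNA of this kind, fewer cells holding a transcript and less of it per cell cannot be told apart.

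The 13 subunit genes of the mitochondrial genome ranged more widely. Their mean log2 deviation was −0.56, 0.41 and 0.57 in Sam68 siRNA libraries 1, 2 and 3, against −1.61, −1.09 and 2.28 in control libraries 1, 3 and 5. MT-CO1, the catalytic subunit of complex IV, held 783, 1418 and 1527 CPM, against 482, 563 and 6228 CPM. Of the 13 genes 0 were called by edgeR (0 at an unadjusted p below 0.05, and 0 by DESeq2 or limma-voom), the groups overlapped in all of them, and the median log2 fold change was −0.73. Without control library 5 the median was 1.598 with adjusted p from 0.0741 to 0.263, so the direction of these transcripts depends on that library. In control library 5 the nuclear genes lay at −0.02, so its high mitochondrial transcripts were not matched by the nuclear subunits.

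**Figure D4:**
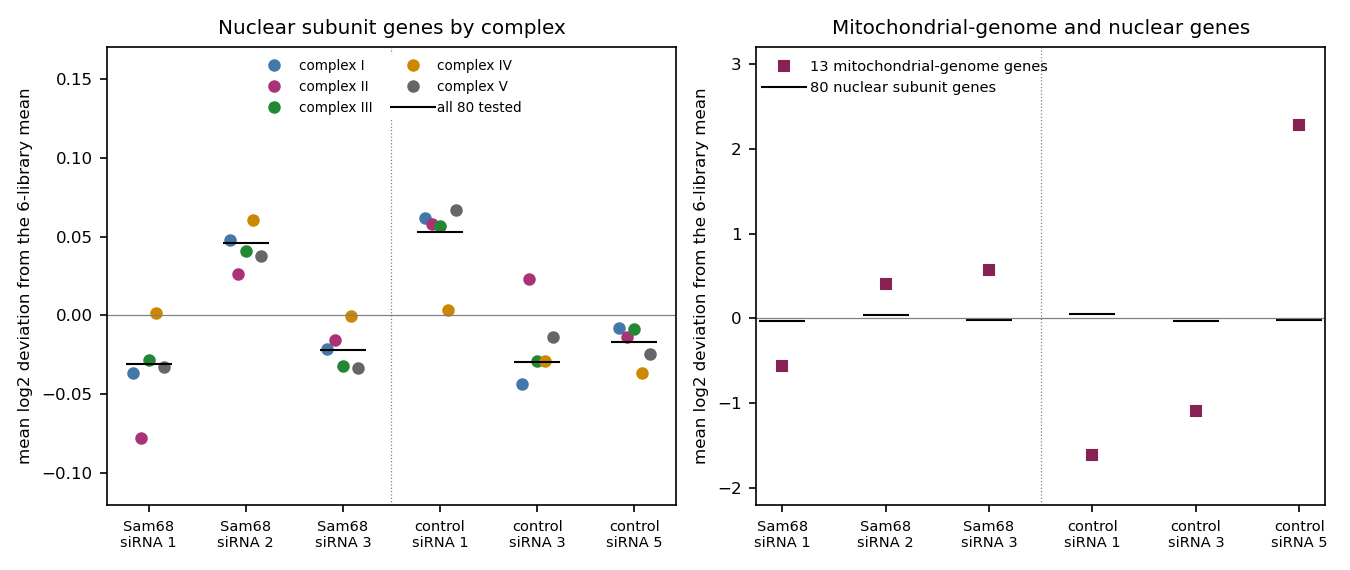
Mean log2 deviation from the 6-library mean per library, Sam68 siRNA libraries left of the dotted line and control libraries right of it. On the left, the 5 complexes (points) and all 80 tested nuclear genes (bars) lie highest in Sam68 siRNA library 2 and control library 1, where complex IV was at 0.00; on the right, the 13 mitochondrial-genome genes (squares) range from −1.61 to 2.28, and bars repeat the nuclear genes.

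Genes for the assembly of the complexes are read against the 19.1% of all tested genes that were called. Of 19 complex I assembly factors 2 rose and 0 fell (10.5%), with a median of 0.01. Without control library 5, NDUFAF4 rose and NDUFAF1 fell. NDUFAF4 rose, with 21.9, 26.1 and 22.9 CPM in Sam68 siRNA libraries, against 18.5, 18.1 and 18.1 CPM in control libraries (log2 fold change 0.37, adjusted p = 0.0137 by edgeR, and 0.0806 without Sam68 siRNA library 2). COA1 rose by 0.26 (adjusted p = 0.0277 by edgeR), though STK17A, which overlaps it, holds 229% of its counts (log2 fold change 0.16, not called). Without any 1 library but control library 3, the adjusted p of COA1 was 0.0514 to 0.102. Of 6 complex III factors 1 fell (16.7%, near the share of all tested genes), with or without control library 5. TTC19, which helps to clear fragments of the Rieske protein, held 51.4, 55.7 and 61.0 CPM, against 78.0, 72.0 and 73.7 CPM (−0.41, adjusted p = 0.00372). It stayed called in each fit with 1 library left out, and it overlaps ZSWIM7 on the other strand, which fell too and holds 20.5% of its counts. Of 27 complex IV factors 1 fell (3.70%, and 0 without control library 5), the copper chaperone COX17, with 21.8, 21.5 and 20.8 CPM against 26.4, 24.0 and 26.7 CPM (−0.27, adjusted p = 0.0365, and 0.0647 to 0.126 without any 1 library but control library 3). DESeq2 did not call COX17 (adjusted p = 0.088). None of 4 complex II factors and 5 complex V factors was called by edgeR, DESeq2 or limma-voom, with 0 and 1 at an unadjusted p below 0.05.

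A list of electron carriers and side entries to the chain also held ubiquinone synthesis genes (PDSS1, PDSS2 and the COQ genes), AIFM1, CHCHD4 and NDUFAB1. Of its 19 tested genes 1 rose and 1 fell (10.5%, against 19.1% of all tested genes), with a median of 0.13. Without control library 5, DHODH, of pyrimidine synthesis, rose as well. COQ4, needed for ubiquinone synthesis, rose to 49.7, 53.0 and 52.4 CPM in Sam68 siRNA libraries, against 39.8, 41.0 and 38.2 CPM in control libraries (0.38, adjusted p = 0.00306). TRUB2 overlaps COQ4 on the other strand and holds 155% of its counts (log2 fold change 0.01, not called). ETFDH, which brings electrons from fatty acid oxidation to ubiquinone, fell to 8.80, 7.06 and 8.84 CPM, against 11.7, 10.3 and 11.8 CPM (−0.45, adjusted p = 0.0261). That call was lost without control library 1 (adjusted p = 0.0631 by edgeR) or Sam68 siRNA library 2 or 3 (0.114 and 0.0547). PPID and C4orf46, on the other strand, hold 294% and 105% of the ETFDH counts (log2 fold changes 0.03 and 0.41, neither called). CYCS, cytochrome c, was at 0.13 with 182, 199 and 197 CPM against 189, 171 and 166 CPM (adjusted p = 0.172).

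The tricarboxylic acid cycle supplies the chain with NADH and succinate. Its genes were listed with PDHA1, PDHB, DLAT and PDHX of pyruvate dehydrogenase, none of which was called. Of these 17 genes 3 rose and 0 fell, with a median of −0.04. That is 17.6%, close to the 19.1% of all tested genes, and the same 3 rose without control library 5. Citrate synthase (CS) rose to 162, 158 and 159 CPM in Sam68 siRNA libraries, against 110, 127 and 127 CPM in control libraries (0.39, adjusted p = 0.00155). IDH3A, of the NAD-dependent isocitrate dehydrogenase, rose to 52.5, 48.6 and 48.0 CPM, against 33.1, 38.9 and 36.8 CPM (0.45, adjusted p = 0.00265). SUCLG1, of succinyl-CoA ligase, rose by 0.31 (adjusted p = 0.00996, and 0.064 without Sam68 siRNA library 3). CS and IDH3A stayed called in each fit with 1 library left out.

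The carriers of ATP, ADP and phosphate in the inner membrane, listed with the outer membrane channels VDAC1, VDAC2 and VDAC3, gave 2 rises of 7 (28.6%, against 19.1% of all tested genes), with a median of 0.12. Without control library 5, VDAC1 rose as well. SLC25A6 and SLC25A5, adenine nucleotide translocases of the inner membrane, rose by 0.43 and 0.27 (adjusted p = 0.000402 and 0.00576). SLC25A6 held 458, 452 and 449 CPM in Sam68 siRNA libraries, against 339, 343 and 328 CPM in control libraries, a gap wide beside the spread in either group. SLC25A5 held 391, 395 and 397 CPM against 319, 337 and 327 CPM. They have 6 and 9 annotated pseudogenes, and both stayed called in each fit with 1 library left out. SLC25A3, the phosphate carrier, was at −0.10 and not called.

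Of 14 tested regulators of respiratory genes 1 rose (7.14%, against 19.1% of all tested genes), and without control library 5 MYC, a transcription factor of growth genes, rose as well. The gene that rose over all libraries was TFB1M, which methylates the mitochondrial ribosome's RNA, with 24.7, 26.3 and 25.4 CPM in Sam68 siRNA libraries, against 19.3, 20.6 and 20.8 CPM in control libraries (0.33, adjusted p = 0.0131). The call was lost without Sam68 siRNA library 2 (adjusted p = 0.0675) or 3 (0.0551). NRF1 was at 0.08, GABPA at −0.02, YY1 at −0.10, ESRRA at −0.06 and SP1 at 0.19 (adjusted p = 0.101), none of them called. TFAM, which packages mitochondrial DNA, held 53.7, 57.8 and 61.6 CPM, against 58.1, 51.6 and 44.5 CPM (0.17, adjusted p = 0.253). PPARGC1A, the coactivator PGC-1α, had 0 counts in every library.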

How the data were processed

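Raw counts and TPM values per gene were deposited by the authors, per the file headers, on the hg38 build, per the submitters' processing notes. Aligner, counter and strand setting: not given in the sources used here. Labels placed 3 libraries in each group.

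Counts were tested without change in edgeR 4.0.16 (R 4.3.3): filterByExpr with a minimum count of 10 and a minimum total of 15, TMM scaling and the robust quasi-likelihood F-test, adjusted by Benjamini-Hochberg over 12351 genes at a threshold of 0.05. "Rose" and "fell" are used of genes past it. The deposited TPM served to compare levels between genes and, as log2(TPM + 1) or log2(TPM + 0.1) in limma 3.58.1, as an alternative. The others were scaling by RLE or upper quartile, limma-voom, DESeq2 1.42.0, a fit with no filter, one with 50 counts or more in 3 libraries, one without robust estimation, the replicate block, and each library left out. The replicate block took the library number as a factor. Sam68 siRNA library 2 and control library 5 share their number with no other library, so its contrast rests on the libraries numbered 1 and 3.

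Named with values were the genes called, the most changed and most abundant of each complex, and isoform pairs; any other subunit could be named. The subunits, lists and heptamers were chosen with earlier results of these data known. Of the subunit genes, 20 share exon bases with a gene holding at least 10% of their counts, and 45 have a GENCODE pseudogene. The values of 1 subunit gene are not reported here and not drawn in the figures, but it is part of the counts and medians.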

Additional observations from a re-analysis of the deposited data

How the results depend on the processing

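No called gene changed direction. Medians of the complexes, values with no test, changed sign in some fits. That of complex IV turned negative with the replicate block and without control library 3 or control library 5. Without control library 1 those of complexes I, II, III and V turned positive, at 0.022, 0.016, 0.043 and 0.009. The median of the mitochondrial-genome genes was 1.598 without control library 5, against −0.73 with it. RLE or upper-quartile scaling and no filter called the same 4 subunit genes; DESeq2 called COX8A and NDUFA5 with SDHC, and limma-voom NDUFA5 and NDUFA6 with SDHC. The stricter filter added ATP5F1D. Without robust estimation ATP5F1D was called, while NDUFA6 (adjusted p = 0.0507) and COX8A (0.0520) were not. With log2(TPM + 1) 1 subunit gene rose and 0 fell of 1542 genes called in all, and with log2(TPM + 0.1) 1 rose and 0 fell of 1525. The groups share the numbers 1 and 3 only. Deviations of same-numbered libraries, taken from the mean of each group, correlated at −0.066 and 0.076. With so few shared numbers and deviations centred within small groups, this cannot decide whether libraries were paired. The replicate block compares only the libraries numbered 1 and 3. With the replicate block 0 subunit genes rose, 0 fell and 1046 genes were called in all, with medians of −0.065 for complex I, −0.087 for complex II, −0.026 for complex IV and −0.065 for complex V; of the 12 list genes called, TTC19, CS, IDH3A and SLC25A6 kept the call, and COQ4 (0.0518), SLC25A5 (0.0721), TFB1M (0.0759), SUCLG1 (0.0819), NDUFAF4 (0.117), COX17 (0.157), COA1 (0.169) and ETFDH (0.182) lost it. With 1 library left out, 0 to 3 subunit genes rose, 0 to 3 fell and 1112 to 2666 genes were called in all; 0 subunit genes were called without Sam68 siRNA library 2 or 3. Medians then ran from −0.060 to 0.043 for complex III and from −0.025 to 0.068 for complex IV. Over all alternatives the adjusted p was 0.00648 to 0.220 for NDUFA5, 0.0151 to 0.152 for NDUFA6, 0.0345 to 0.172 for COX8A and 0.0199 to 0.133 for SDHC. Small counts limit the 8 genes left untested.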
